A study of Mus musculus with 10 samples.

Results

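The chemokine receptor Cxcr3 and its ligands Cxcl9 and Cxcl10 were followed on 10 expression arrays of sorted cells from mouse mammary tumors. The 3 genes were selected on measured values, because they appear in the authors' deposited table of genes that differ between tumor cells of 2 kinds of host. That table and a matching one for macrophages name 251 of the 35556 probesets (sets of array probes read as 1 value) in the value table, and no other names were used here. Cxcl9 is read by probeset 10531407, Cxcl10 by 10531415 and Cxcr3 by 10606058, 1 probeset each. In the authors' deposited table the members carry p-values of 0.00360 (Cxcl9), 0.00538 (Cxcl10) and 0.00423 (Cxcr3), and the largest p-value that the table lists is 0.00996.

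The tumors grew from PyMT-BO1-GFP-Luc, a line of mouse mammary tumor cells marked with green fluorescent protein and luciferase, of which 100000 cells were injected into the mammary fat pad. Hosts were b3KOM mice, which lack integrin beta3 in macrophage lineage cells, or wild-type (WT) mice. At day 10, CD206hi tumor-associated macrophages (TAMs) and tumor cells were separated by flow sorting, which gave 3 arrays of b3KOM TAMs, 3 of WT TAMs, 2 of tumor cells from b3KOM hosts and 2 of tumor cells from WT hosts. The injected line is the same in both hosts, so b3KOM is a property of the host and not of the tumor cells. The labels name neither the promoter behind the deletion nor the number, age or strain of the mice, and the gene that was deleted, Itgb3, is not among the named probesets. Nothing states that the arrays of a group came from separate animals, so p-values measure only the spread between these arrays, which may be technical.

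CXCR3 is a G protein-coupled receptor found mainly on activated T cells and natural killer cells. Cxcl9 and Cxcl10 are secreted chemokines that bind it and draw such cells along a gradient. Both ligand genes are classic targets of interferon gamma, and macrophages are among their main sources in tumors. Cxcl11, a further ligand of the receptor, is not among the named probesets and was not analysed here.

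In RefSeq, Cxcl9 and Cxcl10 lie on chromosome 5 with 1 other gene, Art3, starting between them, and Cxcr3 lies on the X chromosome. The 250 bases before each transcript start are shown because the ligands were high and low on the same TAM arrays, as described further on. They are from RefSeq, build GRCm38.p6, at chr5:92328080-92328329 for Cxcl9, chr5:92348890-92349139 for Cxcl10 and chrX:101734148-101734397 for Cxcr3, each read 5′ to 3′ on the minus strand, and capitals mark matches to the motifs searched.
Cxcl9: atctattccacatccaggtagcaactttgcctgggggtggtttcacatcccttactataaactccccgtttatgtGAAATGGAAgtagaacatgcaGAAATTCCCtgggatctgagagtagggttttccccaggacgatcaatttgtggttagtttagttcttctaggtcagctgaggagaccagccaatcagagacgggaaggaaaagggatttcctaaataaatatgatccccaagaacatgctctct
Cxcl10: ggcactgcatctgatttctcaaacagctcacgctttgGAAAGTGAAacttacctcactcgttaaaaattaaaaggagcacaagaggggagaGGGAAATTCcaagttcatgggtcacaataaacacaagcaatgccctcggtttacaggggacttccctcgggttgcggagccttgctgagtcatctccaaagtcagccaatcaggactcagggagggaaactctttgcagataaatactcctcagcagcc
Cxcr3: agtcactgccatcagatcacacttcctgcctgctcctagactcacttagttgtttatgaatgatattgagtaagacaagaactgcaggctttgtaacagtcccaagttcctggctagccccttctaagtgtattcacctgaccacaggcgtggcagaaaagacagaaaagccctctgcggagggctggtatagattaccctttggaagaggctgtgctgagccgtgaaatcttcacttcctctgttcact

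The motifs searched on both strands were GAAANNGAA, an interferon-stimulated response element (ISRE) core bound by interferon regulatory factors, TTCNNNGAA, the gamma-activated site (GAS), and GGGANNTTC, the opening bases of a kappa B site bound by NF-kappa B. Cxcl10 held the ISRE letters at 213 to 205 bases before the start, and Cxcl9 held them at 175 to 167 bases, both on the strand of the gene. A kappa B match lay downstream of the ISRE match in each, at 159 to 151 bases in Cxcl10 on the strand of the gene and at 154 to 146 bases in Cxcl9 on the other strand. No 2 matches overlapped. Of 32851 RefSeq promoters cut to the same length, 7.13% held the ISRE letters, 3.23% the kappa B letters, 0.250% both and 7.02% the GAS letters. The GAS letters were in none of the 3 windows, and the Cxcr3 window held no match to any of the motifs. Only these exact letters were searched, so sites of the same factors spelled otherwise were neither marked nor counted in the shares. In the Cxcl10 window, for example, the stretch gggacttccc departs from the kappa B letters searched and stays in lower case. The absence of a match therefore does not show the absence of a site. A match is a description of the letters, and no factor binding was measured here.

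**Figure D1:**
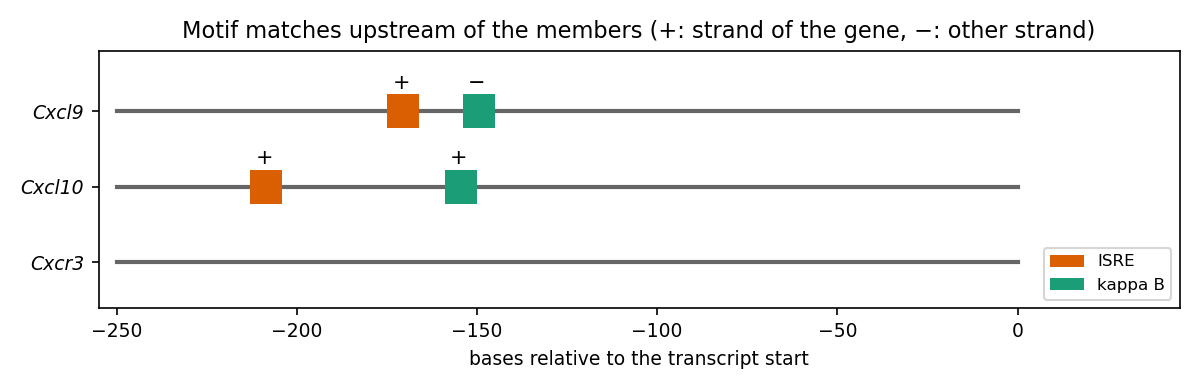
Position of motif matches in the 250 bases before the transcript start of Cxcl9, Cxcl10 and Cxcr3 (x axis, bases relative to the start). Orange blocks are ISRE matches and green blocks kappa B matches, with the strand above each. Both ligand genes show an ISRE match farther from the start than a kappa B match, and the Cxcr3 line is empty.

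Values below are on the log2 scale after RMA, a background correction and quantile normalization that gives 1 value per probeset. A step of 1 is a doubling, and values of different probesets cannot be ranked against each other as amounts of RNA. The median of the whole table, 4.19, serves as a mark near background, and all 3 members exceeded it on all 10 arrays. RNA was measured in bulk, so fewer cells of a type and less RNA per cell cannot be told apart.

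Cxcl9, also called Mig, read 9.70, 8.90 and 10.85 on the b3KOM TAM arrays, against 10.30, 10.19 and 11.31 on the WT TAM arrays. In tumor cells it read 6.88 and 6.95 from b3KOM hosts, against 7.52 and 7.47 from WT hosts. All 6 TAM arrays were brighter than all 4 tumor cell arrays. The TAM genotypes overlapped, since the third b3KOM array exceeded the first and second WT arrays, whereas the tumor cell arrays of the hosts did not overlap.

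Cxcl10, also called IP-10, read 10.01, 9.52 and 10.57 on the b3KOM TAM arrays, against 10.27, 10.32 and 10.60 on the WT TAM arrays. In tumor cells it read 5.92 and 6.30 from b3KOM hosts, against 6.94 and 7.16 from WT hosts. The order of the groups was that of Cxcl9, with WT TAMs and b3KOM TAMs overlapping at the top, then tumor cells from WT hosts, then tumor cells from b3KOM hosts. As for Cxcl9, the highest array in each TAM genotype was the third.

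Cxcr3 read 5.12, 5.09 and 5.10 on the b3KOM TAM arrays, against 5.44, 5.26 and 5.90 on the WT TAM arrays. In tumor cells it read 5.80 and 5.90 from b3KOM hosts, against 6.60 and 6.42 from WT hosts. Its order differed from that of the ligands, with tumor cells from WT hosts highest, tumor cells from b3KOM hosts next, then WT TAMs and last b3KOM TAMs. The middle pair overlapped, because the third WT TAM array reached the level of the tumor cells from b3KOM hosts, and the other neighbours in that order did not.

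**Figure D2:**
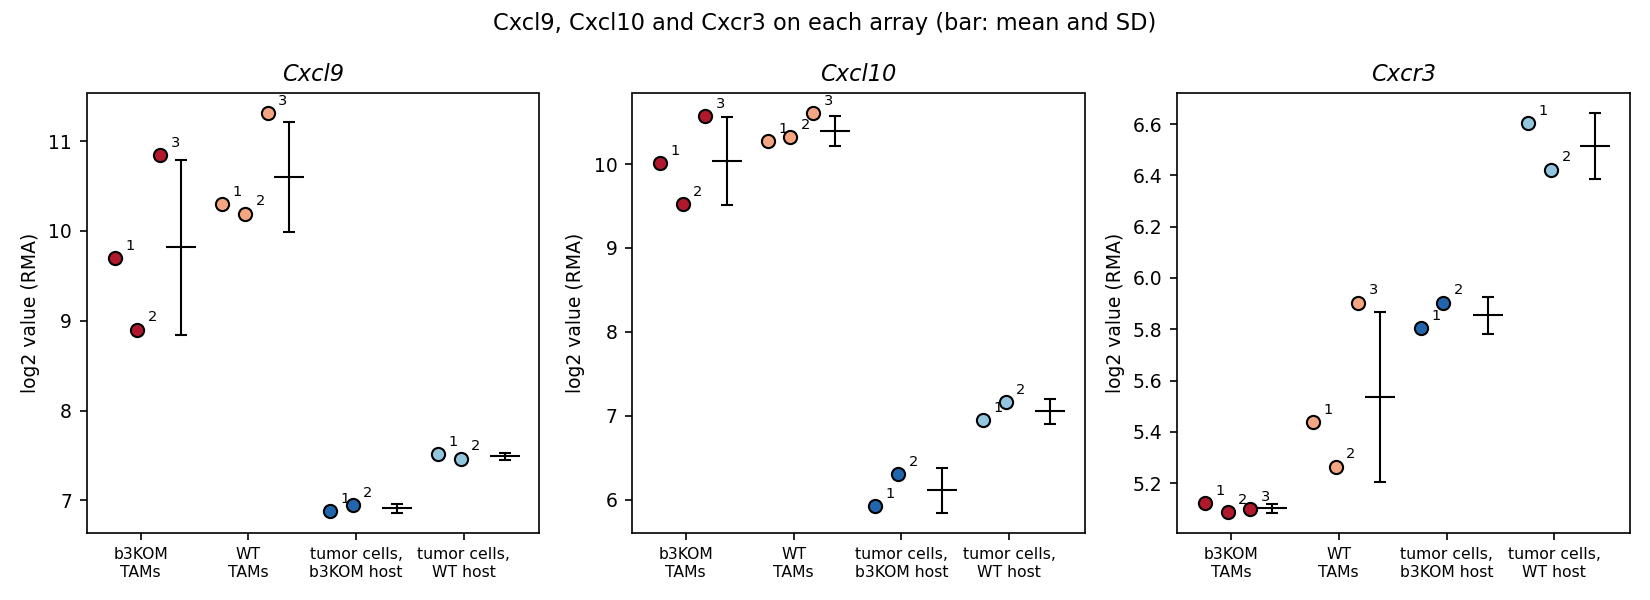
Log2 value of each member (y axis, 1 panel per gene, scales differ) on every array, by group. Points are arrays with their number, and bars beside them give the mean and SD (n = 3 for TAMs, n = 2 for tumor cells). The ligands are higher in TAMs than in tumor cells, Cxcr3 is higher in tumor cells than in TAMs, and each b3KOM mean lies below its WT mean.

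The comparison of TAMs with tumor cells asks which sorted population carries each transcript. It averages the genotypes, so its differences do not rest on the host difference that chose the members. Its limma errors pool the spread of all 4 groups, however, tumor cells included. Choosing probesets by p-values on the tumor cell arrays favors a small SD there. Intervals and p-values of this comparison can therefore look too precise, for the members and for other genes chosen on those arrays. The ligands were higher in TAMs and the receptor was lower. Cxcl10 averaged 10.2 in TAMs and 6.58 in tumor cells, a log2 difference of 3.64 (95% interval 3.19 to 4.08), or 12.4-fold (limma adjusted p of 5.37e-07). Cxcl9 averaged 10.2 in TAMs and 7.20 in tumor cells, a difference of 3.004 (2.16 to 3.85), or 8.02-fold (limma adjusted p of 0.000107). Cxcr3 averaged 5.32 in TAMs and 6.18 in tumor cells, a difference of -0.86 (-1.14 to -0.59), so that TAMs stood at 0.549 times the tumor cell level, with a limma adjusted p of 0.000253.

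Such calls were common. Of the 20246 probesets tested, 24.9% were called higher in TAMs and 41.2% lower, that is 5050 and 8333 probesets as deposited, and after cyclic loess scaling these counts were 6763 and 6283. The median difference of all probesets was -0.14 as deposited and 0.04 with cyclic loess scaling. Relative to it Cxcl9 stood at 3.15 and 3.23, Cxcl10 at 3.78 and 3.87, and Cxcr3 at -0.72 and -0.71, so each member kept its direction.

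The cell type difference was also seen within each genotype. Cxcl10 was 3.93 higher in TAMs than in tumor cells among the b3KOM arrays and 3.35 higher among the WT arrays. Cxcl9 was 2.90 higher among the b3KOM arrays and 3.11 among the WT arrays. Cxcr3 differed by -0.75 among the b3KOM arrays and by -0.98 among the WT arrays. These values within a genotype contain the host difference that chose the members and are given with no test.

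The sorted populations were checked with macrophage markers, of which 11 of 15 on the list are named. All 11 were called higher in TAMs, by 3.42 to 5.67 log2 units, with limma adjusted p of at most 1.17e-09. Their lowest value on any tumor cell array was 4.45, so all 11 lay above the table median there too. None of 23 T cell and natural killer cell markers and none of 7 epithelial markers is among the named probesets, so the presence of lymphocytes, in which Cxcr3 is best known, could not be read from the lists. Tcra, the T cell receptor alpha locus, whose symbol is not on the list, was singled out after its values were seen. It stayed below the table median on each array, with a highest value of 3.92. The authors chose it on the tumor cell arrays, where it averaged 2.53 from b3KOM hosts and 3.01 from WT hosts. Its low values do not show whether lymphocytes were present.

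The TAM comparison asks whether macrophages without integrin beta3 carry less of these transcripts. Its differences come from arrays other than those that chose the members, but its limma errors pool the spread of all 4 groups, tumor cells included. No member passed the test, and all 3 means were lower in b3KOM TAMs. Among all 20246 probesets, 1 was called lower in b3KOM TAMs, which is 0.00494%, against 0 of the 3 members.

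Cxcl9 averaged 9.82 ± 0.98 in b3KOM TAMs and 10.6 ± 0.62 in WT TAMs (SD, n = 3 each). The log2 difference was -0.78, with a 95% interval from -1.85 to 0.29 and a limma adjusted p of 0.819. Cxcl10 averaged 10.04 ± 0.52 in b3KOM TAMs and 10.4 ± 0.18 in WT TAMs (SD, n = 3 each). Its difference was -0.36, with an interval from -0.93 to 0.20 and a limma adjusted p of 0.857. Both intervals reach from a clear reduction to a small increase, so neither a lower level nor an unchanged one is shown for the ligands. With only the TAM arrays in the fit the SE was larger, 0.536 for Cxcl9 and 0.268 for Cxcl10. In the fit of all groups, from which these intervals come, it was 0.467 and 0.247.

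Cxcr3 averaged 5.10 ± 0.02 in b3KOM TAMs and 5.54 ± 0.33 in WT TAMs (SD, n = 3 each). The difference was -0.43, with an interval from -0.79 to -0.08, an unadjusted limma p of 0.0218 and an adjusted p of 0.700. Fitted on the TAM arrays alone, the unadjusted p was 0.0450 and the SE 0.174, against 0.154 in the fit of all groups. It was the member whose TAM arrays did not overlap between genotypes, with a gap of 0.14 between the highest b3KOM array and the lowest WT array. Over all probesets tested, 4.11% had all b3KOM TAM arrays below all WT TAM arrays, and among the members 1 of 3 did. The 2-sided exact permutation test gave p of 0.4 for Cxcl9, 0.3 for Cxcl10 and 0.1 for Cxcr3, where 0.1 is the smallest p that 3 arrays against 3 allow.

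Single arrays carried much of these differences. Without the second b3KOM TAM array the difference was -0.33 for Cxcl9 and -0.11 for Cxcl10, and without the third it was -1.30 and -0.63. Without the third WT TAM array it was -0.43 for Cxcl9 and -0.25 for Cxcr3.

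Between tumor cells of the hosts, the question is whether the injected line carries less of these transcripts in a b3KOM host. It is the contrast by which the members were chosen, so it is described and not tested. Cxcl10 averaged 6.11 ± 0.27 in tumor cells from b3KOM hosts and 7.05 ± 0.15 in those from WT hosts (SD, n = 2 each), a log2 difference of -0.94, or 0.521 times the WT level. Cxcr3 averaged 5.85 ± 0.07 in tumor cells from b3KOM hosts and 6.51 ± 0.13 in those from WT hosts, a difference of -0.66. Cxcl9 averaged 6.91 ± 0.05 in tumor cells from b3KOM hosts and 7.49 ± 0.04 in those from WT hosts, a difference of -0.58. The gap between the highest b3KOM array and the lowest WT array was 0.52 for Cxcl9, 0.64 for Cxcl10 and 0.52 for Cxcr3. All 3 members had both b3KOM arrays below both WT arrays, as did 16.6% of all probesets tested, a share from which nothing is read here because the members were picked on this contrast.

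In the authors' deposited table the log2 fold changes run the other way, WT against b3KOM, and stand at 0.93 for Cxcl10, 0.65 for Cxcr3 and 0.58 for Cxcl9.

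Macrophage markers differed in the opposite direction on these tumor cell arrays. In cells from b3KOM hosts all 11 named markers had higher means, by 0.45 to 0.88 log2 units, and the sum of their linear values was 2641 to 2831 on the b3KOM arrays and 1677 to 1812 on the WT arrays. The authors chose these marker probesets too on these arrays. On the TAM arrays the same sum was 44677 to 46737 in b3KOM and 45301 to 46720 in WT, and the marker differences between genotypes lay between -0.04 and 0.07. What part macrophage RNA in the tumor cell sort has in the Cxcl9 and Cxcl10 values was not tested. The measured direction of the ligands was lower, and that of the markers higher, on the same b3KOM arrays.

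The ligands were read next to other genes of the interferon gamma response, a list of 66 genes of which 11 are named and 7 were both tested and named through the tumor cell table. All 7 had lower means in b3KOM TAMs, with a median log2 difference of -0.65, against 0.01 for all probesets tested, of which 48.3% were below 0. The 7 genes were read on the same arrays and are not independent observations, so this count is a description with no test. None of the 7 passed after adjustment over all probesets, and 1 had an unadjusted p under 0.05, as did 6.42% of all probesets tested. Irgm2, an immunity-related GTPase, differed by -0.53 ± 0.22 (SE). Gbp2, an interferon-induced guanylate-binding protein, differed by -0.97 ± 0.43, and Mpa2l (now Gbp6), of the same family, by -0.65 ± 0.33. Iigp1, an immunity-related GTPase like Irgm2, differed by -0.82 ± 0.44. The limma adjusted p of these 4 genes ran from 0.749 to 0.792. Nlrc5, Mx1 and Trex1, also on the list, were chosen by the authors on the TAM arrays, where they differed by -0.82, -0.59 and -0.42, so they are left out of the counts, as is Ubd, which did not pass the filter on low values. The difference of Nlrc5 is no exact size, since its mean in b3KOM TAMs, 4.09, lay below the table median.

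In tumor cells the 7 genes were lower in b3KOM hosts as well, with a median of -0.90, in the contrast by which they too were chosen. Iigp1 differed by -1.11, Gbp2 by -0.91 and Irgm2 by -0.90. Mpa2l averaged 4.13 in tumor cells from b3KOM hosts, below the table median, so its difference there is no exact size. Of the 7, 4 were called higher in TAMs than in tumor cells and 0 lower, against 24.9% and 41.2% of all probesets tested. Mpa2l is among those called higher, and for the same reason its difference between cell types is no exact size. Gbp2 differed by -0.04 between the cell types, with a limma adjusted p of 0.932, and Irgm2 by 0.72, with one of 0.00533.

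**Figure D3:**
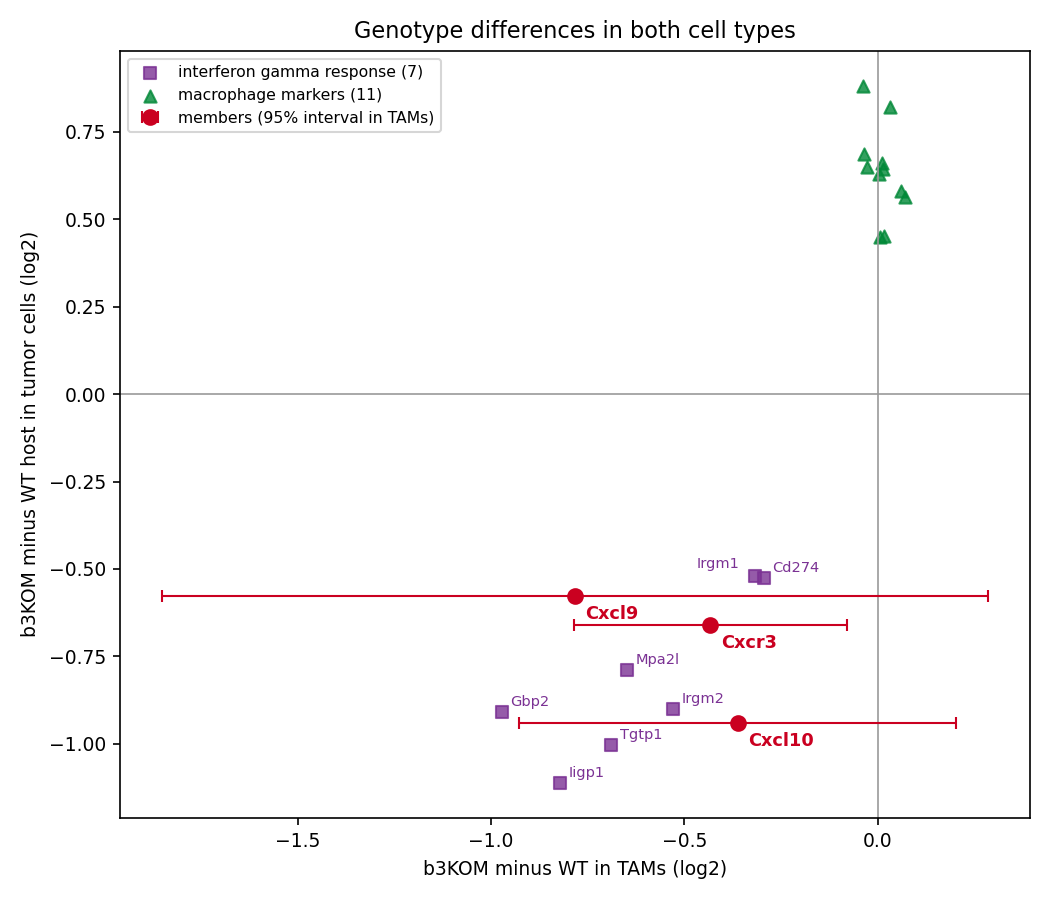
Log2 difference between genotypes in TAMs (x axis, b3KOM minus WT) against that in tumor cells (y axis, b3KOM minus WT host). Red points are the members with the 95% interval of the TAM difference, purple squares the 7 interferon gamma response genes and green triangles the 11 macrophage markers. Members and interferon genes lie in the lower left, and the markers lie near 0 in TAMs and between 0.45 and 0.88 in tumor cells.

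Array by array, the ligands followed the level of the interferon genes in TAMs. The mean of the 7 genes was 7.57, 7.28 and 8.49 on the b3KOM TAM arrays, against 8.09, 8.18 and 8.90 on the WT TAM arrays. The lowest array for this mean, the second b3KOM one, was also the lowest for Cxcl9 and Cxcl10, and the third WT array was the highest for all. Over the 6 TAM arrays Cxcl9 correlated with the mean at Pearson's r of 0.984 (exact permutation p of 0.00556, adjusted 0.0111) and Spearman's rho of 0.943 (exact p of 0.0167, adjusted 0.0333). Cxcl10 correlated with it at r of 0.949 (exact permutation p of 0.00417, adjusted 0.0111) and rho of 1 (exact p of 0.00278, adjusted 0.0167). Cxcl9 and Cxcl10 correlated with each other at r of 0.975 (exact permutation p of 0.00278, adjusted 0.0111) and rho of 0.943 (exact p of 0.0167, adjusted 0.0333). P-values are 2-sided and adjusted over 6 relations.

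Among the ligands and the interferon genes r stayed high without the extreme arrays and with genotype means removed, a description with no test. Without the second b3KOM and the third WT array, r was 0.962 for Cxcl9 with the mean, 0.989 for Cxcl10 with the mean and 0.982 between the ligands (4 arrays). After the mean of each genotype was subtracted, r was 0.980, 0.934 and 0.967.

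For Cxcr3 no relation passed. It correlated with the interferon mean at r of 0.717 (exact permutation p of 0.114, adjusted 0.162) and rho of 0.6 (exact p of 0.242, adjusted 0.242). With Cxcl9 it gave r of 0.684 (exact permutation p of 0.135, adjusted 0.162) and rho of 0.657 (exact p of 0.175, adjusted 0.242). With Cxcl10 it gave r of 0.548 (exact permutation p of 0.275, adjusted 0.275) and rho of 0.6 (exact p of 0.242, adjusted 0.242). Without the second b3KOM and the third WT array these r values were 0.03, -0.05 and -0.09 (4 arrays). After the mean of each genotype was subtracted they were 0.537, 0.533 and 0.310 over the 6 arrays. Leaving out the extreme arrays also narrows the range, so these values do not show on which arrays the relation rested. The third b3KOM array had high ligands and interferon genes and a Cxcr3 value as low as the other b3KOM arrays. Whether the receptor's correlations differ from those of the ligands was not tested.

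**Figure D4:**
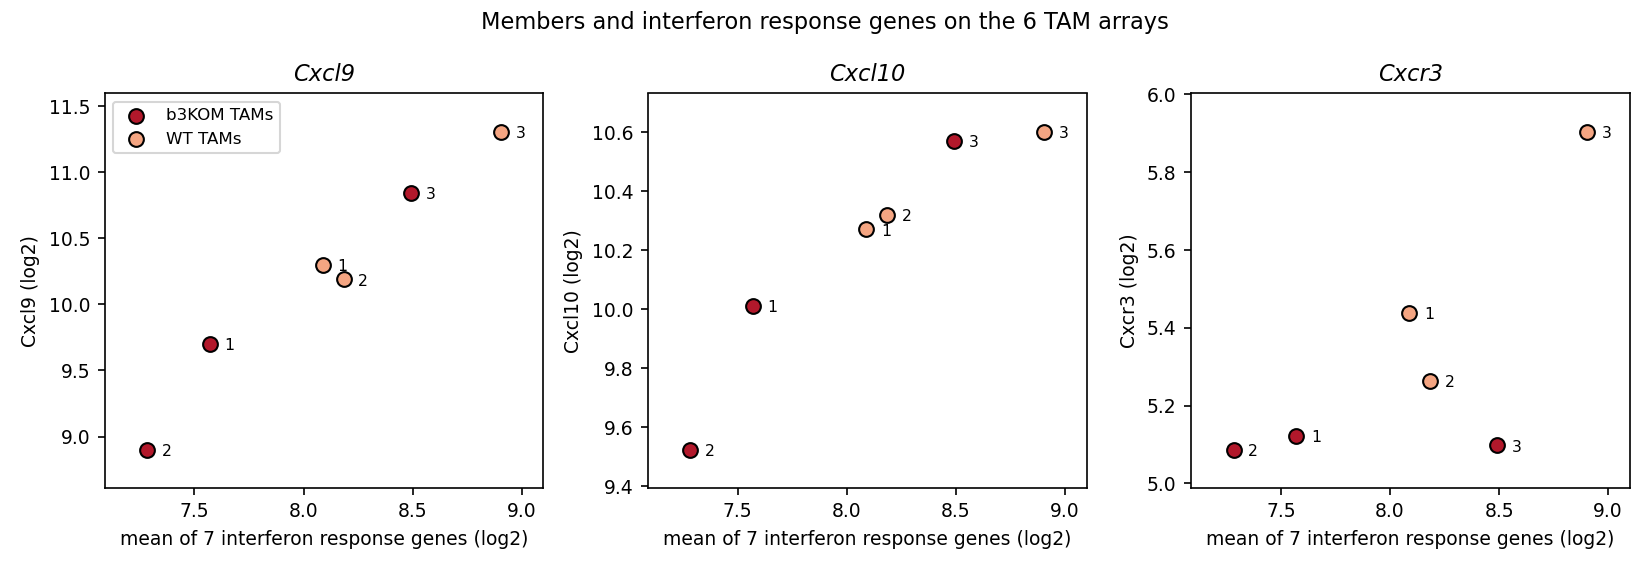
Value of each member (y axis, log2, 1 panel per gene) against the mean of 7 interferon gamma response genes (x axis, log2) on the 6 TAM arrays, with array numbers. Cxcl9 and Cxcl10 climb with the mean across both genotypes. The 3 b3KOM arrays of Cxcr3 stay between 5.09 and 5.12 while their means run between 7.28 and 8.49.

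The spread between arrays of 1 group differed by member and cell type. In TAMs the SD within groups was 0.817 for Cxcl9, 0.392 for Cxcl10 and 0.234 for Cxcr3, against a median of 0.187 over all probesets tested, and 97.3% of probesets had a smaller SD than Cxcl9. In tumor cells the SD was 0.0440 for Cxcl9, 0.218 for Cxcl10 and 0.104 for Cxcr3, against a median of 0.109, and 14.2% of probesets had a smaller SD than Cxcl9. The tumor cell values are a description only, since each group holds 2 arrays and the members were chosen by p-values on these arrays, which favors a small SD there.

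Likeness to each member was measured by Pearson's r with the 170 other named and tested probesets, as a description with no test. All of these were chosen by the authors on the TAM or the tumor cell arrays. Over the 6 TAM arrays the genes most like Cxcl9 were H2-Eb1, a chain of the MHC class II molecule, at r of 0.986, Gbp2 at 0.981, Cd74, the class II invariant chain, at 0.978, and Cxcl10 at 0.975. Those most like Cxcl10 were H2-Eb1 at 0.981, Cxcl9 at 0.975, Gbp2 at 0.970 and Iigp1 at 0.951. H2-Eb1 and Cd74 had host differences of 1.09 and 1.04 in tumor cells, where the ligands were lower. For Cxcr3 the closest were Bcl2a1b and Bcl2a1d, nearly identical copies of an anti-apoptotic gene whose probes may share signal, at 0.913 and 0.903, Tyrobp, the myeloid adaptor DAP12, at 0.902, and Apoc1, an apolipoprotein, at 0.892. The authors chose Apoc1 on the TAM arrays, where its b3KOM mean was lower, as was that of Cxcr3, which favors a likeness there. Cxcl9 ranked 40th and Cxcl10 67th of 170 in likeness to Cxcr3.

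Over all 10 arrays, where the cell type difference weighs most, the genes most like Cxcl9 were Gm4951 at r of 0.991, Mpa2l at 0.990, Cxcl10 at 0.971 and Cd274, the gene of the immune checkpoint protein PD-L1, at 0.970. Those most like Cxcl10 were Cd274 at 0.993, Ccl8, a monocyte-attracting chemokine, at 0.991, Mpa2l at 0.989 and Gm8979 at 0.987. For Cxcr3 they were Zfp748 at 0.909, Mgst2, a microsomal glutathione transferase, at 0.905, Pcgf1, a Polycomb group protein, at 0.897 and Amn1 at 0.872. The authors chose Mgst2, Pcgf1 and Amn1 on the TAM arrays, where their b3KOM means were lower, as was that of Cxcr3. The other genes of this paragraph, members included, were chosen on the tumor cell arrays. Such choices favor a likeness over these arrays. Cxcr3 ran against the ligands on this scale, at r of -0.59 with Cxcl9 and -0.68 with Cxcl10.

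Of 18 further genes of the receptor's axis (ligands, interferon gamma signaling, receptor partners) 1 is named, Pf4, and it did not pass in TAMs. The 6 named MHC class II presentation genes all had lower means in b3KOM TAMs, with a median of -0.13 and 0 passing, while in tumor cells all 6 means were higher where the host was b3KOM (median 1.004), in the contrast by which these 6 were chosen too.

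Other chemokines and receptors are given for comparison. Of 35 other chemokines 3 are named, and 0 of them passed in TAMs. Pf4, which binds a form of CXCR3 in humans, had a genotype difference of 0.02 ± 0.08 (SE) in TAMs and 1.17 in tumor cells. Cxcl2, which attracts neutrophils, stood at -0.04 ± 0.09 in TAMs and 1.26 in tumor cells, and Ccl8 at -0.10 ± 0.16 and -0.87. Of 23 other receptors 3 are named and 2 were tested. Ccr2, the monocyte receptor for Ccl2, differed by 0.37 ± 0.18 in TAMs and 0.70 in tumor cells, and Cxcr4, the receptor of Cxcl12, by -0.15 ± 0.20 and 0.85. Cxcr4 was called higher in TAMs than in tumor cells, by 5.30 log2 units (limma adjusted p of 1.78e-08), the direction opposite to that of Cxcr3. The means of Ccr2 in tumor cells, 3.93 from b3KOM hosts and 3.23 from WT hosts, lay below the table median, so its host difference there is no exact size and no test between cell types is given for it. Ccr9, named through the TAM table, lay below the median on each array. All the tumor cell values in this paragraph come from probesets chosen on those arrays.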

How the data were processed

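Log2 expression values of 10 Affymetrix arrays were made by the authors with RMA and deposited; per the submitters' processing notes the program was Affymetrix Expression Console. Its version and the array model are not stated in the labels, nor is any batch. Per the labels' protocols, 50 ng of RNA was amplified per array. The authors' deposited tables give a log2 fold change, a mean, a t score and a p-value per selected probeset, per the file headers, and they name 251 probesets.

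Here limma 3.58.1 in R 4.3.3 (lmFit, eBayes) was fitted with 1 mean for each of the 4 groups to the 20246 probesets above the table median of 4.19 on at least 2 arrays, with 6 residual and 2.35 prior degrees of freedom. P-values were adjusted by Benjamini-Hochberg within a contrast, with 0.05 as threshold; the fit was tested on simulated data. Correlations and 3 against 3 arrays used exact permutation tests (scipy 1.17.1). The number of arrays limits the precision. Members and gene lists were chosen with earlier results of these data known. The named genes are the members, the 4 probesets most like each member over the 6 TAM arrays and over all 10, and up to 4 members of each list by smallest p in the TAM contrast, and lists are otherwise given by counts. One gene is left out of the lists and not reported here. Array numbers follow the order of deposit and pair no samples. Alternatives were other filters, scaling, variance models, array weights, TAM or tumor cell arrays alone and leaving out each array.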

Additional observations from a re-analysis of the deposited data

How the results depend on the processing

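Each member difference in TAMs, between TAMs and tumor cells and between hosts in tumor cells kept its sign under all alternatives run, and each kept its side of the threshold where it was tested. In TAMs, leaving out 1 array moved the difference between -1.30 and -0.33 for Cxcl9, -0.63 and -0.11 for Cxcl10 and -0.57 and -0.25 for Cxcr3, with limma adjusted p from 0.421 to 0.982. The other alternatives gave -0.80 to -0.65, -0.38 to -0.32 and -0.43 to -0.38. The number of probesets called between TAM genotypes was 3. It was 9 with the stricter filter and 9 with intensity trend and robust fitting, 0 on TAM arrays alone (878 at an unadjusted limma p under 0.05), and 0 to 5 without 1 array. The cause was not tested. No member was called in any of these fits. With cyclic loess scaling the 6 correlations over TAM arrays kept their sign and their side of the threshold. With 2 or 3 arrays a group, the intervals of the member differences in TAMs are wide, and small differences could not be resolved.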
